A study of Mus musculus with 4 samples.

Results

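The Clca genes encode the chloride channel regulators, calcium-activated, a family of secreted and membrane-shed glycoproteins. All probe sets annotated with a Clca symbol were taken, which gave 12 of the 45101 probe sets on the array, for 8 genes. Of these, 11 probe sets carry 1 symbol, and 1 carries both Clca3a1 and Clca3a2 and is reported apart. The family was selected on the differences between Sox9cKO and SmoM2 arrays described below, in which Clca3a2 was already known to stand out, so the differences of its members are a description. No p is given for them, and the calls of the fit over all probe sets are only counted.

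The arrays (Affymetrix, 3' expression) measured RNA of basal interfollicular cells of mouse tail epidermis, sorted as integrin alpha 6 positive and CD34 negative. All mice carried K14CreER, a tamoxifen-dependent Cre recombinase driven by the promoter of the basal keratin 14, and SmoM2, a constitutively active form of the Hedgehog transducer Smoothened. In the SmoM2 group (K14CreER:SmoM2, 2 arrays) Sox9 was intact, and in the Sox9cKO group (K14CreER:SmoM2:Sox9cKO, 2 arrays) it was conditionally deleted. Every mouse received 2.5 mg of tamoxifen on 10 consecutive days and was analysed 9 weeks after the first dose, and neither ages nor the number of animals per array are stated in the labels. The comparison asks which genes differ when Sox9 is missing from SmoM2-expressing cells. No array without SmoM2 is part of the series used here, so the level in normal epidermis is not known from these data.

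CLCA proteins were named as chloride channels and were later found to act on channels rather than to form them. They carry a metalloprotease domain that cuts the protein itself and a von Willebrand factor type A domain, and human CLCA1 raises the surface level of the calcium-activated chloride channel ANO1. Clca1 (formerly gob-5) is a product of mucous goblet cells, Clca2 is expressed in stratified epithelia, and Clca3a1 is known from lymphatic endothelium and lung. The symbols have been exchanged over time, and the names used here are those of RefSeq, in which Clca3a2 has the older synonym Clca2 and Clca1 has the older synonyms Clca2 and Clca3.

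The 8 genes lie side by side on mouse chromosome 3 (GRCm38.p6), from 144729677 to 145099443, a stretch of 369767 bases, and 7 of them are protein-coding. In the order of the chromosome they are Clca3a1 (144729677 to 144760977), Clca3a2 (144780581 to 144819623), Clca3b (144822623 to 144849302), the transcribed pseudogene Clca4c-ps, Clca4b, Clca4a, Clca1 and Clca2 (145070260 to 145099443). Clca3a1 and Clca3a2 are thus direct neighbours at one end of the cluster, and only 2999 bases separate Clca3a2 from Clca3b.

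The promoter of Clca3a1 is shown because this gene is one of the pair that read higher without Sox9. The run is the 250 bases before the start site in RefSeq's table (GRCm38.p6), 5′ to 3′ on the minus strand, at chr3:144760978-144761227.
Clca3a1: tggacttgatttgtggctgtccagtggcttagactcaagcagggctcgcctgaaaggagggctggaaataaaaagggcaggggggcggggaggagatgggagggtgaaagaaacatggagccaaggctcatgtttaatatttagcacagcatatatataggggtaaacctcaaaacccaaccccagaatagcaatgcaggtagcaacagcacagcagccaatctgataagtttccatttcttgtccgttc
Motifs were searched on both strands of such 250-base windows, as exact letters: the SOX motif AACAAT (held by 9.42% of 32851 RefSeq promoters), the related ACAAAG (16.5%), the GLI motif GACCACCCA (0.225%), the AP-1 motif TGANTCA (6.75%) and the TATA box TATAAA (12.4%). Clca3a1 held none of the 5. Clca2 held AACAAT and ACAAAG once each, not overlapping, and Clca4b held only TATAAA. A match is a run of letters and not a binding site, and binding was not measured.

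The deleted gene was read first. The Sox9 probe set that was brightest in SmoM2 had log2 signals of 10.21 (replicate 1) and 10.02 (replicate 2) with Sox9 intact, and of 6.75 (replicate 1) and 5.70 (replicate 2) in Sox9cKO, a log2 difference of -3.89. The other 2 Sox9 probe sets differed by -0.75 and -0.41, and which of these probes lie in the deleted exons is not known here. The median signal of all probe sets lay between 5.45 and 5.48 on the 4 arrays, and the 10th percentile between 3.66 and 3.69. Y-linked genes read 6.74 to 9.48 in SmoM2 replicate 2 and Sox9cKO replicate 1 and 3.23 to 3.62 on the other arrays, so the replicates of a group were not repeats of 1 sample. The 8 basal keratinocyte markers, Krt5, Krt14 and Trp63 among them, averaged 11.54 and 11.91 in SmoM2 and 11.34 and 11.39 in Sox9cKO. Their median log2 difference was -0.43, from -0.87 for Col17a1 to 0.12 for Trp63.

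Loss of Sox9 went with higher signal of Clca3a1 and Clca3a2 and with little difference in the rest of the family, which was mostly dim. All 5 probe sets of these neighbouring genes read higher on both Sox9cKO arrays than on both SmoM2 arrays, by 1.54 to 4.32 on the log2 scale. The 7 probe sets of the other 6 genes differed by -0.26 to 0.16. All of these but the Clca2 probe set read between 3.11 and 4.38 on every array, so little can be said of their differences. In sorted cells, a larger share of cells with a transcript and more transcript per cell cannot be told apart.

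Of the 12 probe sets, 4 passed limma at an adjusted p under 0.05 with higher signal in Sox9cKO, beside 1.48% of all 45037 probe sets tested. None passed with lower signal, beside 2.34%. By arrays that did not overlap, 7 members were higher, beside 22.6% of all probe sets, and 1 was lower, beside 21.8%. With a difference of at least 2-fold as well, 5 members were higher, beside 1.34%, and none was lower, beside 1.98%. Since the comparison chose the family, nothing is read from these counts. The median difference over the 12 probe sets was 0.15, against 0.01 over all probe sets. Only 5 of the 12 had a mean signal at or above the median of all probe sets, so most of the family sits in the dim part of the array.

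**Figure D1:**
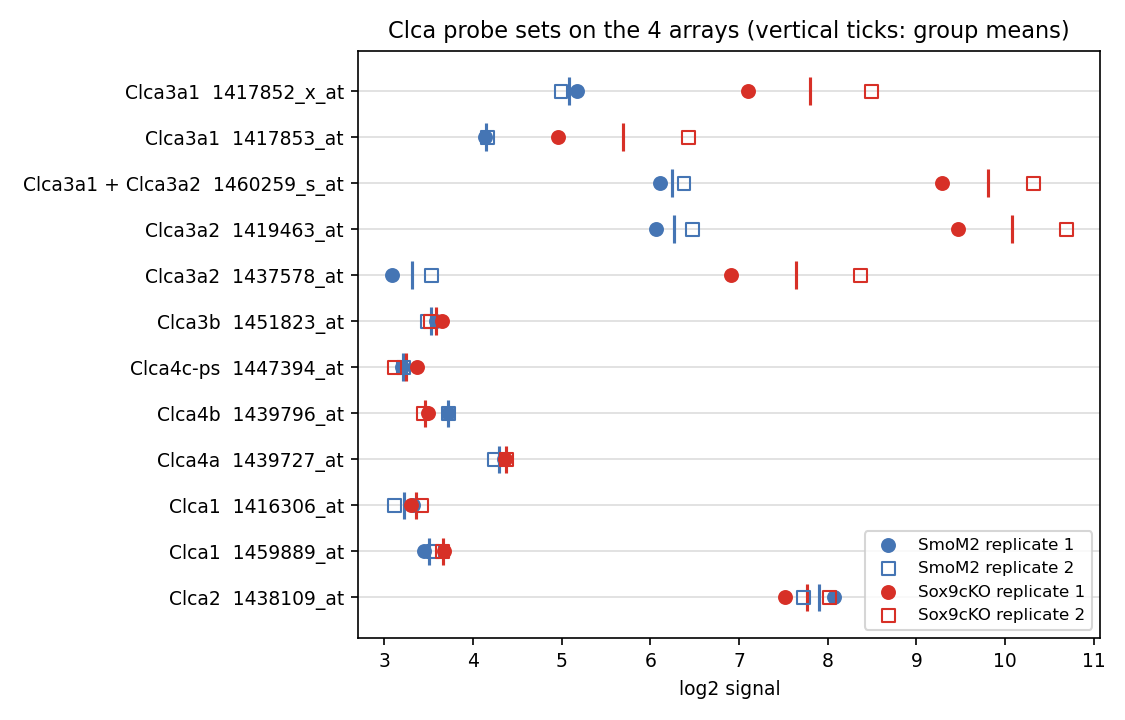
Log2 signal (horizontal axis) of each Clca probe set on each array, with SmoM2 in blue, Sox9cKO in red, circles for replicate 1, squares for replicate 2 and ticks for group means. On the 5 probe sets of Clca3a1 and Clca3a2 the red points lie to the right of the blue ones, and on the others they lie close together.

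Clca3a2, which has been described in the mammary gland, showed the highest differences of the family. Its probe set 1437578_at read 3.09 (replicate 1) and 3.54 (replicate 2) in SmoM2, against 6.91 (replicate 1) and 8.37 (replicate 2) in Sox9cKO; later pairs of values follow the same order. The SmoM2 values lay below the 10th percentile of their arrays, and the Sox9cKO values were brighter than 67.3% and 81.2% of all probe sets. The log2 difference was 4.32 (SE 0.43, n = 2 per group), from 3.31 ± 0.31 to 7.64 ± 1.03 (SD), a 20.04-fold difference. It ranked 5 from the top among all probe sets. Because a signal this low may be background, the fold is not exact.

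The second Clca3a2 probe set, 1419463_at, was well above the dim end in both genotypes. It read 6.06 and 6.48 in SmoM2 and 9.47 and 10.69 in Sox9cKO. The groups were 2.99 apart at their closest. The log2 difference was 3.81 (SE 0.37), or 14.02-fold.

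The probe set annotated to both genes, 1460259_s_at, read 6.11 and 6.38 in SmoM2 and 9.29 and 10.32 in Sox9cKO. The groups did not overlap, and the log2 difference was 3.56 (SE 0.31), or 11.8-fold. Its signal may come from either transcript or from both.

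Clca3a1 also read higher in Sox9cKO. Its probe set 1417852_x_at read 5.17 and 4.99 in SmoM2 and 7.11 and 8.50 in Sox9cKO, a log2 difference of 2.72 (SE 0.40), or 6.58-fold. Its probe set 1417853_at read 4.13 and 4.16 in SmoM2 and 4.96 and 6.43 in Sox9cKO, a log2 difference of 1.54 (SE 0.42), or 2.92-fold. On this probe set Sox9cKO replicate 1 stood only 0.80 above the higher SmoM2 array. Its SmoM2 signals were dim, so this fold is not exact either. The probe sequences were not used here, so how much of the Clca3a1 signal comes from Clca3a2 transcripts, which come from a close paralog, cannot be told apart.

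Within the family, the Sox9cKO arrays differed most from each other on these probe sets. Replicate 2 read higher than replicate 1 by 1.03 to 1.47 on all 5, while the SmoM2 arrays differed by -0.18 to 0.44. A gap of at least 1 in that direction between the Sox9cKO arrays was found for 152 of all probe sets tested (0.338%). That share was not taken among probe sets with as high a difference, so it does not set these 5 apart from them. The gap gave an SD within Sox9cKO of 0.73 to 1.04 for the 5 probe sets. Of the Sox9cKO arrays only replicate 1 held Y-linked signal, and the part of sex in the gap was not tested.

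**Figure D2:**
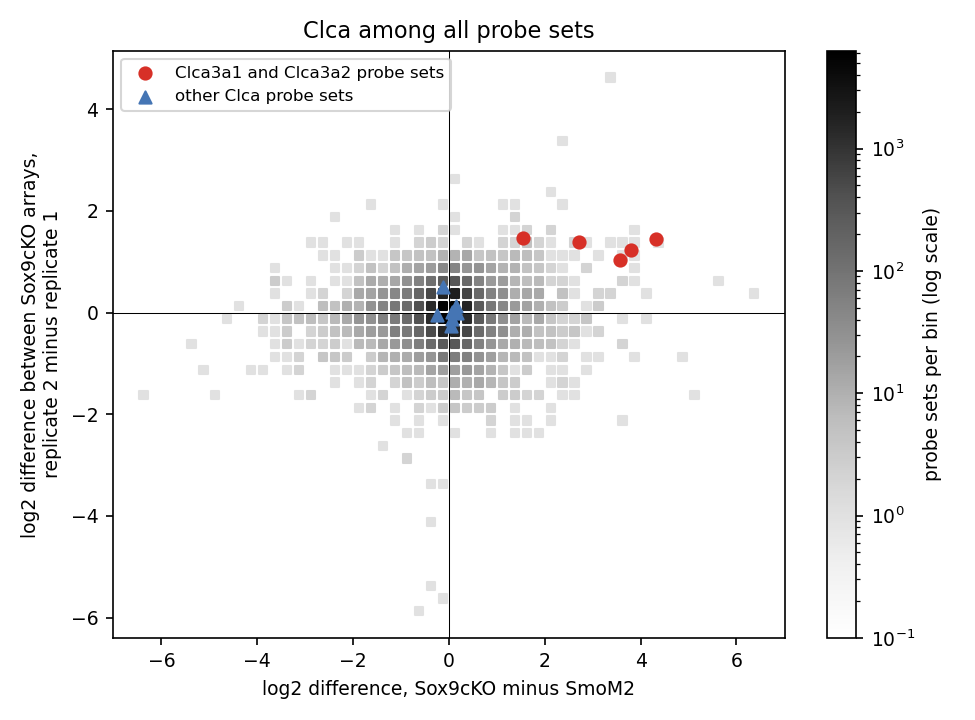
Every probe set tested, binned by its log2 difference between Sox9cKO and SmoM2 (horizontal axis) and by the log2 difference between the Sox9cKO arrays (vertical axis), with darker squares for more probe sets on a log scale. The 5 Clca3a1 and Clca3a2 probe sets lie at the upper right, with gaps of 1.03 to 1.47, and the 7 others lie near the centre.

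Leaving out Sox9cKO replicate 1 or 2 moved the sizes on all 5 probe sets. The sign could not change, because both Sox9cKO arrays read above both SmoM2 arrays on each of them. The difference of Clca3a2 was 33.2-fold and 12.1-fold at 1437578_at and 21.4-fold and 9.18-fold at 1419463_at. That of the shared probe set was 16.9-fold and 8.27-fold. That of Clca3a1 was 10.7-fold and 4.06-fold at 1417852_x_at and 4.86-fold and 1.75-fold at 1417853_at.

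**Figure D3:**
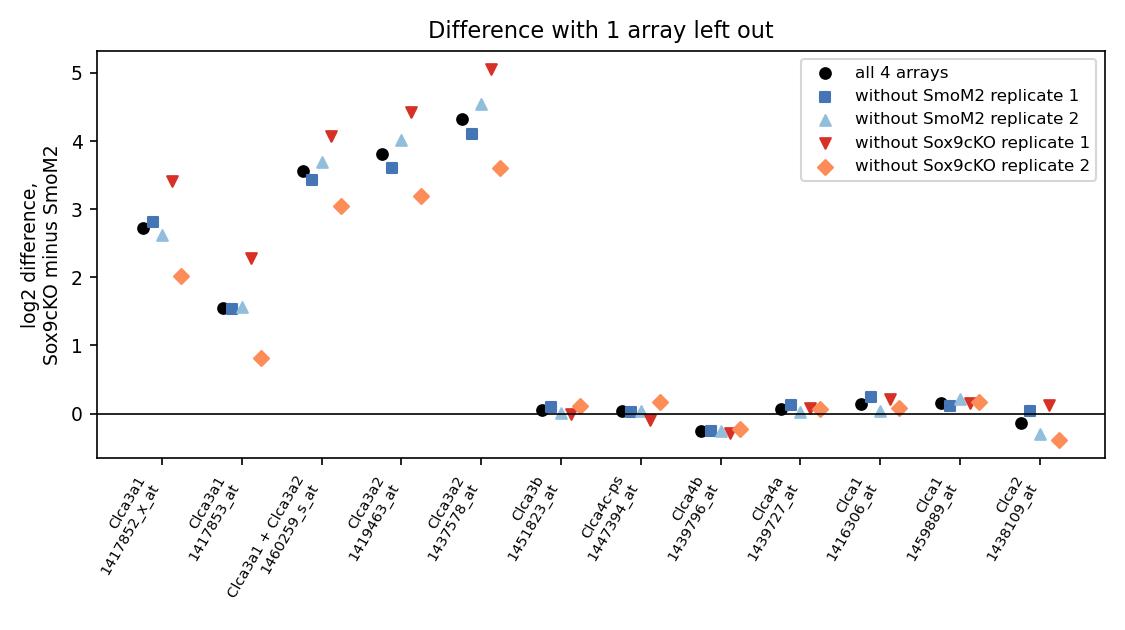
Log2 difference between Sox9cKO and SmoM2 (vertical axis) of each Clca probe set (horizontal axis) with all 4 arrays and with each array left out. The Clca3a1 and Clca3a2 probe sets lie above 0, from 0.81 to 5.05, and are highest without Sox9cKO replicate 1 and lowest without Sox9cKO replicate 2.

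Clca2, which encodes the family member of stratified epithelia, was the only other gene with a signal clearly above the dim end. Its probe set 1438109_at read 8.07 and 7.73 in SmoM2 and 7.52 and 8.02 in Sox9cKO. The groups overlapped, with a log2 difference of -0.13 (SE 0.21), from 7.90 ± 0.24 to 7.77 ± 0.36 (SD, n = 2 each). The sign changed with 1 array left out, from -0.39 without Sox9cKO replicate 2 to 0.12 without Sox9cKO replicate 1.

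The other 5 genes were dim on every array, with 6 probe sets between 3.11 and 4.38. Clca3b, the gene next to Clca3a2, read 3.58 and 3.48 in SmoM2 and 3.65 and 3.52 in Sox9cKO. Its groups overlapped, and its signal was brighter than at most 9.52% of the probe sets of an array. The pseudogene Clca4c-ps read 3.20 and 3.21 in SmoM2 and 3.37 and 3.11 in Sox9cKO.

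Clca4b was the one member with lower signal on both Sox9cKO arrays, at 3.72 on both SmoM2 arrays and 3.49 and 3.44 in Sox9cKO. This difference of -0.26 (SE 0.13) lies among signals near or below the 10th percentile. Clca4a read 4.35 and 4.24 in SmoM2 and 4.36 and 4.38 in Sox9cKO, apart by 0.02 at their closest. The goblet cell gene Clca1 read 3.33 and 3.11 against 3.30 and 3.43 at one probe set and 3.45 and 3.55 against 3.67 and 3.66 at the other. Detection calls were not part of the data used here, so whether these 5 genes are expressed at all cannot be said.

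Apart from Lmo4, the genes beside the cluster differed little between the genotypes. Of the 4 named genes on each side, 8 in all and each measured, 1 passed limma, higher in Sox9cKO, beside 2.66% of 18193 genes called higher and 3.53% called lower. Lmo4, a LIM-only transcriptional cofactor and the farthest of the 4 on the side of Clca3a1, rose by 1.14 on the log2 scale, from 9.32 and 9.41 in SmoM2 to 10.62 and 10.39 in Sox9cKO (SE 0.15, limma adjusted p = 0.0049). Unlike the Clca3a genes, it was not higher in Sox9cKO replicate 2. Sh3glb1, the direct neighbour of Clca3a1, read 10.95 and 10.62 against 10.85 and 10.78, and Odf2l, the neighbour of Clca2, read 5.55 and 5.71 against 5.80 and 5.60. The 7 neighbours that did not pass differed by -0.17 to 0.27. Other probe sets of a gene gave other sizes for some of them. Ccn1, a matricellular protein, was at -0.03 by its brightest probe set, at -0.40 when its probe sets were averaged, and at -0.56 without probe sets of the _x_at, _s_at and _a_at types (limma adjusted p = 0.095). Odf2l was at 0.07 by its brightest probe set and at 0.33 by the average.

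**Figure D4:**
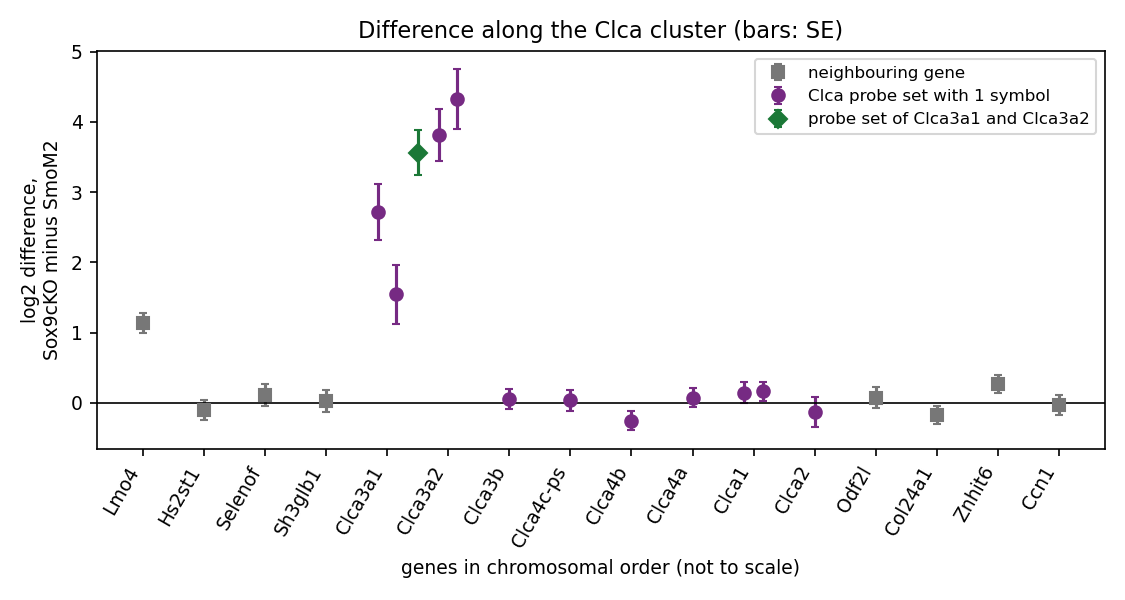
Log2 difference between Sox9cKO and SmoM2 (vertical axis, bars are SE) of the Clca probe sets and of the 4 named genes on each side, in chromosomal order. Clca3a1, Clca3a2 and the probe set of both stand at 1.54 to 4.32, Lmo4 at 1.14, and the others between -0.26 and 0.27.

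Other genes were ranked by how closely their 4 array values, each minus the gene's own mean, followed those of Clca3a2 at 1437578_at, by Euclidean distance over the 4 arrays. The nearest was Ccl1, a chemokine, at a distance of 0.51, with 5.19 and 5.50 in SmoM2 and 8.35 and 10.03 in Sox9cKO. Next came Maob, a mitochondrial amine oxidase (0.64), Efemp1, a matrix glycoprotein (0.83), Krt24, an epithelial keratin (0.84), and Dcn, the proteoglycan decorin (0.96). For each of the 5, Sox9cKO replicate 2 read higher than replicate 1, which the ranking itself favours because each array's value enters the distance. For scale, the other Clca3a2 probe set stood at 0.54, with 1 gene nearer, and the shared probe set at 0.83, with 2 genes nearer. The Clca3a1 probe sets stood at 1.67 and 2.80, with 15 and 102 genes nearer. With 4 arrays in 2 groups, such a ranking mostly follows the size of the difference.

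No measured gene of the anoctamins and bestrophins, families that hold calcium-activated chloride channels, differed by as much as any Clca3a1 or Clca3a2 probe set. Of 13 genes of these families 9 were measured, none was called higher and 1 was called lower. The median difference was 0.01 against 0.02 over all genes, of which 2.66% were called higher and 3.53% lower. Ano9 had the largest difference, 0.67 (SE 0.23, limma adjusted p = 0.178), and was highest in Sox9cKO replicate 2. Ano1, the channel that human CLCA1 acts on, read 10.75 and 11.05 in SmoM2 and 10.57 and 11.03 in Sox9cKO, a log2 difference of -0.10 (SE 0.19, limma adjusted p = 0.869). Ano6, a phospholipid scramblase and channel, fell by 0.63 (SE 0.13, limma adjusted p = 0.037), from 10.13 and 10.21 to 9.54 and 9.55. Its adjusted p lay between 0.119 and 0.171 with any 1 array left out, and was 0.053 when its probe sets were averaged.

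Of 31 other genes of chloride channels and chloride transport 26 were measured, 1 rose and 1 fell, with a median of -0.03, beside 2.66% of all genes called higher and 3.53% called lower. Ttyh3, a tweety family protein, rose by 1.14 (SE 0.18, limma adjusted p = 0.014), from 6.90 and 6.86 to 8.27 and 7.77. Clcn2, a voltage-gated chloride channel, fell by 0.73 (SE 0.14, limma adjusted p = 0.023), from 6.01 and 5.99 to 5.33 and 5.20. The adjusted p of Ttyh3 was 0.083 and 0.096 without SmoM2 replicate 1 or 2, and that of Clcn2 lay between 0.055 and 0.114 with any 1 array left out.

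None of the 18 genes of mucous and goblet cell secretion passed limma in either direction (median 0.09), beside the same 2.66% and 3.53% of all genes. Agr2, a goblet cell disulfide isomerase, read 4.54 and 4.12 in SmoM2 and 4.16 and 4.11 in Sox9cKO, and Muc5ac, a gel-forming mucin, read 5.20 and 5.04 against 5.10 and 5.18. Tff1, a trefoil peptide and the brightest probe set of the list, read 7.98 and 8.14 against 8.07 and 8.43. The list as a whole averaged 5.22 and 5.14 in SmoM2 and 5.21 and 5.31 in Sox9cKO.

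Of 21 cell-surface and secreted metalloproteases, the enzyme class to which the CLCA protease domain is related, none rose and 4 fell (median -0.08), beside 2.66% of all genes called higher and 3.53% called lower. The aggrecanase Adamts5 fell by 1.94 (SE 0.13, limma adjusted p = 0.00049), from 8.94 and 8.84 to 6.97 and 6.94. Mme, the peptidase neprilysin, fell by 1.62 (SE 0.18, limma adjusted p = 0.0029), and the stromelysin Mmp10 fell by 1.35 (SE 0.27, limma adjusted p = 0.030). Adamts5 and Mme passed with any 1 array left out, whereas Mmp10 had adjusted p = 0.121 without SmoM2 replicate 2 and 0.10 without Sox9cKO replicate 1. When its probe sets were averaged, Mme was at -0.80.

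Some CLCA proteins bind beta4 integrin. Of 12 genes of that integrin's partners and of cell attachment 10 were measured, none rose and 2 fell (median -0.55), beside 2.66% of all genes called higher and 3.53% called lower. Both were laminin genes, Lamb3 and Lama3, with log2 changes of -1.25 and -1.11 (limma adjusted p = 0.0095 and 0.018). Without SmoM2 replicate 2 the adjusted p was 0.070 and 0.075. Lama3 was at -0.56 when its probe sets were averaged (adjusted p = 0.091) and at -0.01 without probe sets of the _x_at, _s_at and _a_at types, and its adjusted p was 0.059 without Sox9cKO replicate 1.

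Markers of other cell types were read beside Clca3a1 and Clca3a2, and the counts of these lists stand beside 2.66% of all genes called higher and 3.53% called lower. Of the 6 measured lymphatic endothelial markers none rose and 1 fell, with a median difference of 0.04. Their summed signal, on the log2 scale, was 7.72 and 7.68 in SmoM2 and 7.36 and 7.35 in Sox9cKO. Prox1, the defining transcription factor of that lineage, read 3.94 and 3.72 against 3.59 and 3.66, near the 10th percentile of the arrays, and Lyve1, a hyaluronan receptor, fell from 6.23 and 6.41 to 4.01 and 3.62. Lyve1 was the one that fell, by 2.51. Pdpn, the membrane glycoprotein podoplanin, read 5.23 and 5.22 in SmoM2 and 6.07 and 5.53 in Sox9cKO, a log2 difference of 0.58 (SE 0.19, limma adjusted p = 0.163). The part of lymphatic cells in the Clca3a1 signal was not tested.

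Of the 8 fibroblast markers only Dcn passed limma, and it rose. The summed signal was 9.96 and 9.90 in SmoM2 and 12.24 and 12.86 in Sox9cKO. In Sox9cKO most of that sum was Dcn alone, which read 12.09 and 12.78. The median difference of the list was 0.145. Col1a1 read 4.51 and 4.08 against 4.38 and 4.17, and Pdgfra 3.97 and 4.43 against 4.50 and 4.60. Of the 14 markers of inner root sheath and cortex 7 rose and none fell, and their summed signal was 11.31 and 11.08 in SmoM2 and 11.87 and 11.75 in Sox9cKO. With an intensity trend and a robust prior, Krt28 did not pass (limma adjusted p = 0.07). Of the 7, Krt25, Krt28, Krt71, Tchh and Msx2 read higher in Sox9cKO replicate 1 than in replicate 2, and Krt73 and Gata3 read higher in replicate 2, as the Clca3a genes did. Of the 6 measured companion layer and outer root sheath markers 1 rose and none fell (median -0.35). It was the companion layer keratin Krt75, from 6.61 and 5.80 to 12.18 and 10.67, a log2 difference of 5.22 (SE 0.47, limma adjusted p = 0.0013), and the summed signal of the list was 15.40 and 15.59 against 15.32 and 15.27. Of the 9 suprabasal markers 3 rose and none fell, with summed signals of 15.13 and 15.06 against 15.03 and 15.47. The suprabasal cadherin Dsg1a read 9.29 and 9.25 against 10.77 and 11.51, and filaggrin (Flg) 6.27 and 5.85 against 7.32 and 8.43, both highest in Sox9cKO replicate 2. Flg did not pass with an intensity trend and a robust prior (limma adjusted p = 0.051). Involucrin (Ivl) read 7.04 and 5.61 against 7.68 and 6.58, with replicate 1 the higher in each group, and did not pass. Sbsn and Krtdap, which did not pass either, were at -0.49 and -0.17. Of the 10 measured sebocyte markers none rose and 2 fell (median -0.97), namely the lipid droplet proteins Cidea (-2.29) and Plin2 (-1.18), and their summed signal was 14.48 and 14.32 against 14.40 and 14.28. Of the 6 measured Merkel cell markers Sox2, a transcription factor, fell by 3.20 and none rose (median -0.03). Of the 7 measured T cell markers only Thy1 passed, and it rose by 1.99 (median 0.151). Of the 7 smooth muscle and pericyte markers only Cspg4 passed, and it fell by 1.32 (median -0.175). No marker of blood endothelium, melanocytes, Langerhans and myeloid cells, or mast cells and basophils passed in either direction. The part of hair follicle, sebaceous, Merkel, suprabasal and the other listed cells in the Clca3a1 and Clca3a2 signal was not tested.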

How the data were processed

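The authors deposited 1 log2 signal for each probe set and array, made from biotin-labelled RNA amplified from 100 ng of total RNA, per the labels' protocols. How signals were normalized and summarised is not stated in the labels; the submitters' processing notes name R 2.14.0. That the scale is log2 follows from the range of the values, which were used as deposited. Signals of different probe sets are not transcript amounts on 1 scale; percentiles and brightness give only a probe set's place on its array.

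Sox9cKO and SmoM2 were compared with limma 3.58.1 in R 4.3.3 (lmFit and eBayes, default prior, two-sided), with Benjamini-Hochberg adjustment over 45037 probe sets, 64 control probe sets being left out. Degrees of freedom were 6.99 with the prior. Lists and neighbours were read in a separate fit over 18193 genes (7.17 degrees of freedom), each by its probe set with 1 symbol and the highest mean. With 2 arrays per group an exact permutation test of 1 probe set reaches p = 0.333 at best, so calls depend on variance shared across probe sets. The labels do not say whether replicates were separate animals, but Y-linked signal differed between the replicates of each group. They were thus not repeats of 1 sample, and p-values measure only the spread between these samples. The procedure was tested on simulated data.

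The members and lists were chosen with earlier results of these data known. Named are every Clca probe set, up to 3 called genes of largest change per pathway list, the 5 nearest profiles and 4 named genes on each side of the cluster. Ano1, Ano9, Agr2, Muc5ac, Tff1 and marker genes were picked after their values were seen. No protein or probe sequence was used here, and promoters of other Clca genes than those named are not reported here.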

Additional observations from a re-analysis of the deposited data

How the results depend on the processing

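Leaving out an array moved the sizes most, for example from 20.04-fold to 33.2-fold and 12.1-fold at Clca3a2 probe set 1437578_at, while the other fits and filters leave a probe set's own difference as it is, apart from quantile normalization. No called Clca probe set changed sign, which was not possible with 1 array left out because its groups did not overlap. The differences near 0 of Clca2, Clca3b and Clca4c-ps changed sign with 1 array left out. The alternatives were 1 probe set per gene, dim probe sets left out, an intensity trend with a robust prior, quantile normalization, probe sets of the _x_at, _s_at and _a_at types left out, the replicate block and each array left out. The count of 4 Clca probe sets called higher was 2 with 1 probe set per gene (of 8 measured). It was also 2 without the _x_at, _s_at and _a_at types (of 10 measured). Both filters left out probe sets that were among the 4 called. Without those types 1417852_x_at was left out, and the Clca3a1 probe set that remained, 1417853_at, was not called. No Clca probe set was called lower under any alternative. Over all probe sets, the percentage called higher ranged from 0.826 to 3.26. In the pathway lists, 1 gene was called higher and 8 lower; with 1 array left out the counts were 0 to 3 higher and 2 to 7 lower, and the cause was not tested. None was higher without SmoM2 replicate 1 or 2, and 3 were higher and 5 lower without Sox9cKO replicate 1. With any 1 array left out, the single array of its group took its variance from the pair of the other group. With the replicate number as a block, 5 Clca probe sets were called higher, and 2 genes of the lists higher and 14 lower. Deviations of equally numbered arrays correlated at 0.12 over probe sets, and the labels give no shared origin, so the arrays share only a number. Each number joins an array with Y-linked signal and 1 without it. Arrays have no read depth, and low signal on every array limits the reading of 5 of the 8 genes.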
